A study of Mus musculus with 18 samples.

Results

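The 38 keratinocyte and epithelial genes described here were taken from a fixed list of symbols, and all 38 were found among the 20878 genes of the expression matrix. They were read in 18 tumors grown from K7M2 cells, a murine osteosarcoma line syngeneic to Balb/c, which were grafted under the skin of female mice of 6 to 8 weeks. Cells carried either a control shRNA (ATRX CT) or an shRNA against Atrx (ATRX KD), and hosts were immunocompetent Balb/c mice (Balb/cJ) or immunodeficient NSG mice (NOD.Cg-Prkdc scid Il2rg tm1Wjl/SzJ). There were 4 Balb/c ATRX CT, 4 Balb/c ATRX KD, 5 NSG ATRX CT and 5 NSG ATRX KD tumors, 1 mouse each. Whether each shRNA line was a clone or a pool is not given in the sources used here. Mice were housed 5 to a cage and whole cages received the same cells, so cage and shRNA cannot be told apart. The comparisons below read the effect of the knock-down in each host, the difference between hosts, and the difference between the 2 knock-down effects.

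The epidermis is a layered epithelium. Its basal cells attach to the basement membrane and carry the keratin pair Krt5 and Krt14, and as they move up they switch to Krt1 and Krt10, then to loricrin and other proteins that are cross-linked into the cornified envelope. Krt6a, Krt6b, Krt16 and Krt17 belong to the hair follicle and appear in the epidermis between follicles after wounding, while desmosomes, built from desmoplakin, plakophilins and desmosomal cadherins, hold the layers together. An osteosarcoma is a tumor of mesenchymal origin, and none of these layers is part of it.

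Values are FPKM, fragments scaled to transcript length and library size, so levels can be set side by side between genes. Within each group they are given in the order of mouse numbers, which was 41, 43, 44 and 45 for Balb/c ATRX CT, 56, 58, 59 and 60 for Balb/c ATRX KD, 1 to 5 for NSG ATRX CT and 26 to 30 for NSG ATRX KD. Depth, estimated from the steps between low values, lay between 15150000 and 24800000 fragments per tumor. At the median depth 3 fragments corresponded to 0.0727 FPKM of Krt5 and to 0.497 FPKM of the short transcript Krtdap. Atrx was at 13.4, 26, 10.3 and 20.7 FPKM in the Balb/c ATRX CT tumors and at 21.5, 7.88, 9.11 and 17.3 FPKM in the Balb/c ATRX KD tumors, and at 16.2, 11.6, 24.4, 15.1 and 20.5 FPKM and 8.42, 16.4, 8.59, 8.88 and 8.59 FPKM in the matching NSG tumors. The ranges overlapped in both hosts, at log2 differences of −0.34 in Balb/c and −0.74 in NSG (limma adjusted p = 0.999 and 0.0610). In NSG the ATRX KD tumors at 8.42, 8.59, 8.88 and 8.59 FPKM were below every ATRX CT tumor, and that at 16.4 FPKM was not. The study reports from a Western blot that ATRX was depleted in the cells carrying its shRNA. Whole-tumor RNA does not give the Atrx level of the grafted cells alone, which was not tested. ATRX KD is used below as the label of a tumor. Col1a1, the main bone collagen chain, was at 56.6 FPKM or more in every tumor and Runx2, an osteoblast regulator, at 3.54 FPKM or more. The mature osteoblast genes Sp7, Alpl, Ibsp and Bglap did not pass 0.662 FPKM in any of them. Cd3g, a chain of the T cell receptor complex, was at 6.05 FPKM or more in every Balb/c tumor and at 0.0482 FPKM or less in every NSG tumor, as the host labels state. In each NSG tumor 1 of the 4 T cell genes read was still at or above 1 FPKM. The 4 summed to 1.0 to 5.77 FPKM in NSG and to 13.7 to 33.1 FPKM in Balb/c tumors.

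The members split into those that every tumor carried and those that only some tumors carried. Itgb4, Jup, Cldn1, Sbsn and Klf5 were at or above 1 FPKM in all 18 tumors, while 12 of the 38 members were below 1 FPKM in all of them and 8 passed 1 FPKM in a single tumor. The number of members at or above 1 FPKM was 25 in Balb/c ATRX CT tumor 45 and 17, 15 and 17 in NSG ATRX KD tumors 26, 27 and 29. It was 16 in Balb/c ATRX KD tumor 60, 12 in each of NSG ATRX CT tumors 4 and 5, and 5 to 9 in the other 11 tumors. Of the 38 members 35 had their highest level in tumor 45. The median range of a member over the 18 tumors was 2.21 on the log2 (FPKM + 1) scale among the 29 members with a mean of at least 0.1 FPKM, against 0.925 among all 14803 genes with such a mean.

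**Figure D1:**
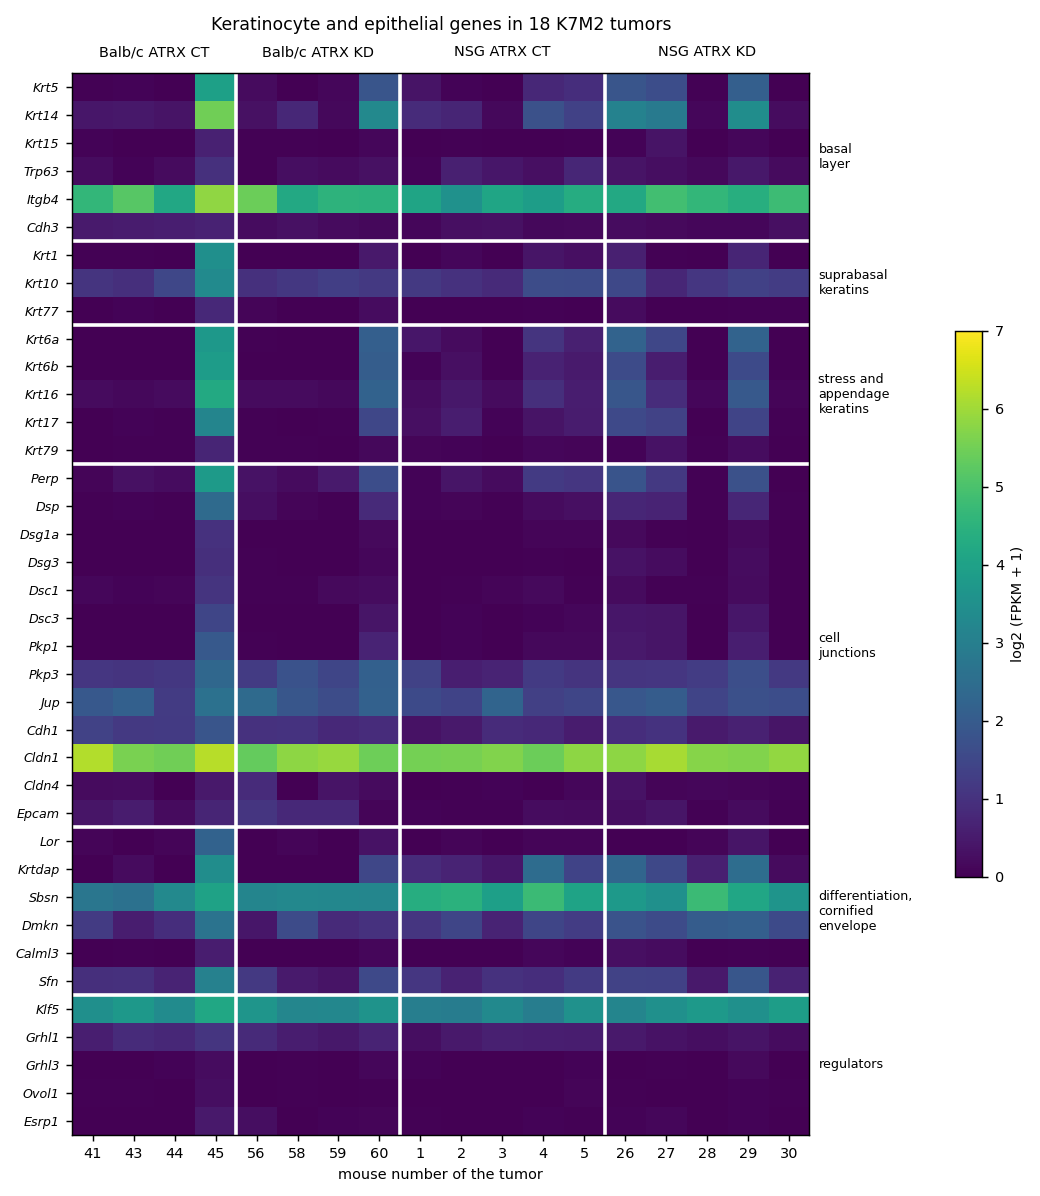
Level of each of the 38 members (rows, grouped by role) in each of the 18 tumors (columns, grouped by host and shRNA and labelled by mouse number), as colour on the log2 (FPKM + 1) scale. Krt5, Krt14, Krt6a, Krt16 and Perp stand out in tumors 45, 60, 26, 27 and 29 and more faintly in 4 and 5, while Itgb4, Cldn1, Sbsn and Klf5 are bright in every column.

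Basal layer genes came first among the members that varied. In Balb/c hosts, Krt5 was at 0.0232, 0.056, 0 and 14.8 FPKM in ATRX CT and at 0.154, 0, 0.0992 and 2.62 FPKM in ATRX KD tumors. The NSG tumors had it at 0.283, 0.0476, 0, 0.724 and 0.877 FPKM with ATRX CT and at 2.59, 2.15, 0.0209, 3.33 and 0.018 FPKM with ATRX KD. Krt5 thus passed 0.5 FPKM in 7 tumors, which were 45 and 60 in Balb/c and 4, 5, 26, 27 and 29 in NSG, and all 4 groups held at least 1 of them. The next highest was NSG ATRX CT tumor 1.

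Krt14 stood at 0.331, 0.378, 0.303 and 43.3 FPKM in Balb/c ATRX CT and at 0.235, 0.718, 0.117 and 8.89 FPKM in Balb/c ATRX KD tumors. Among NSG tumors the values were 0.815, 0.659, 0.116, 2.34 and 1.53 FPKM for ATRX CT and 7.53, 6.34, 0.0854, 9.75 and 0.172 FPKM for ATRX KD. Krt14, the type I partner of Krt5 in basal cells, was highest in the same 7 tumors. Its level relative to Krt5 was 2.93 in tumor 45, 3.39 in tumor 60, 2.91 to 2.95 in NSG tumors 26, 27 and 29, 3.24 in tumor 4 and 1.75 in tumor 5. The estimated number of Krt14 fragments behind these ratios ran from 39.0 in tumor 5 to 1300.5 in tumor 45. Krt5 lies on chromosome 15 (mm10, 101707070 to 101712891, minus strand) and Krt14 on chromosome 11 (100203162 to 100207510, minus strand), in the clusters of type II and type I keratin genes.

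Krt15, which is made by basal cells and by the bulge of the hair follicle, was highest in tumor 45 at 0.573 FPKM and next in NSG ATRX KD tumor 27 at 0.291 FPKM, and it was at 0.0902 FPKM or less elsewhere. Trp63, the master regulator of stratified epithelia, ranged from 0.0350 to 0.961 FPKM with tumor 45 highest and NSG ATRX CT tumor 5 next at 0.678 FPKM. NSG ATRX CT tumor 2, with Krt5 at 0.0476 FPKM, had Trp63 at 0.542 FPKM, so Trp63 did not follow the order of Krt5. The level of Itgb4 in Balb/c was 24, 35.5, 17.5 and 55.7 FPKM for ATRX CT and 42.1, 17.5, 22.1 and 21.7 FPKM for ATRX KD tumors. Its values in NSG were 16, 10.6, 16.4, 14 and 19 FPKM for the ATRX CT tumors and 17.7, 28.7, 23.9, 19.99 and 26.6 FPKM for the ATRX KD tumors. Itgb4, the integrin chain of hemidesmosomes, was abundant in tumors with and without basal keratins. In Balb/c ATRX KD tumor 56 it reached 42.1 FPKM with Krt5 at 0.154 FPKM.

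**Figure D2:**
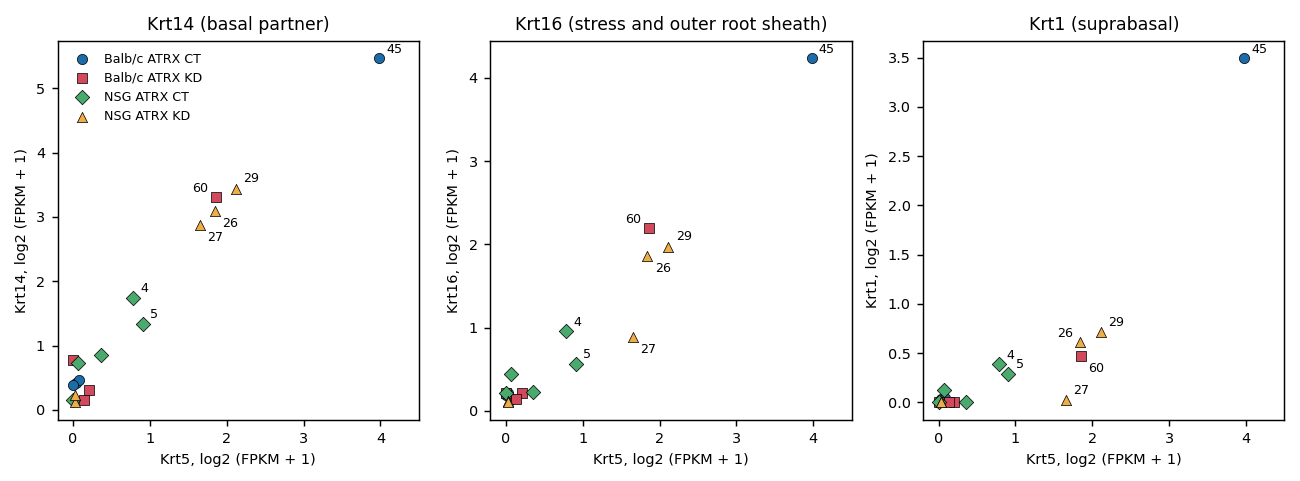
Krt14, Krt16 and Krt1 (y axes) against Krt5 (x axes) in the 18 tumors, all on the log2 (FPKM + 1) scale, with symbols for host and shRNA and mouse numbers beside the 7 tumors with Krt5 at or above 0.5 FPKM. Krt14 lies along the order of Krt5, Krt16 is lower in tumor 27 than in 26, 29 and 60, and Krt1 is high only in tumor 45.

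Suprabasal keratins separated the 7 tumors. Krt1 was at 0.0209, 0.0344, 0 and 10.3 FPKM in the Balb/c ATRX CT tumors and at 0, 0, 0 and 0.388 FPKM in the Balb/c ATRX KD tumors. The NSG tumors had it at 0, 0.0886, 0, 0.307 and 0.224 FPKM with ATRX CT and at 0.525, 0.0191, 0, 0.644 and 0 FPKM with ATRX KD. Krt1 is the type II keratin of the spinous layer, and tumor 45 held about 16 times the level of the next tumor, against 4.43 times for Krt5 and 4.44 times for Krt14. Relative to Krt5 in the same tumor, Krt1 was 0.697 in tumor 45, 0.424 in tumor 4, 0.255 in tumor 5, 0.203 in tumor 26, 0.193 in tumor 29 and 0.148 in tumor 60. In tumor 27 the ratio was 0.00889, from about 0.966 fragments of Krt1 beside 210 of Krt14, a level under that of 3 fragments.

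In Balb/c hosts, Krt10 was at 1.09, 0.926, 1.83 and 9.2 FPKM in ATRX CT and at 0.962, 1.2, 1.46 and 1.25 FPKM in ATRX KD tumors. Among NSG tumors the values were 1.23, 1.01, 0.776, 2.06 and 2.0 FPKM for ATRX CT and 1.85, 0.677, 1.15, 1.57 and 1.38 FPKM for ATRX KD. Krt10, the type I partner of Krt1, was thus present in all 18 tumors, at 0.677 to 2.06 FPKM outside tumor 45. The lowest Krt10 value of all was that of tumor 27, where Krt1 was under the level of 3 fragments. Krt77, a keratin of the suprabasal epidermis and sweat gland ducts, was at 0.754 FPKM in tumor 45, at 0.168 FPKM in tumor 60 and at 0.158 FPKM in tumor 26. It was at 0.0697 FPKM or less in the others and listed at 0 in 10 tumors. At the median depth 3 fragments of Krt77 corresponded to 0.0946 FPKM.

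Of the keratins of stressed epidermis and of the hair follicle, Krt6a, Krt6b, Krt16 and Krt17 were above the level of 3 fragments in all 7 tumors. Krt16 stood at 0.156, 0.102, 0.145 and 17.9 FPKM in Balb/c ATRX CT and at 0.158, 0.163, 0.0997 and 3.57 FPKM in Balb/c ATRX KD tumors. Its values in NSG were 0.169, 0.354, 0.158, 0.939 and 0.481 FPKM for the ATRX CT tumors and 2.63, 0.852, 0.0854, 2.91 and 0.0733 FPKM for the ATRX KD tumors. Krt16 is the type I partner of Krt6a and Krt6b, and the tumors highest in it were, in order, 45, 60, 29, 26, 4, 27 and 5. In tumor 27, where Krt14 was nearly as high as in tumor 26, Krt16 was at 0.852 FPKM against 2.63 FPKM.

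The level of Krt6a in Balb/c was 0, 0.017, 0 and 12.4 FPKM for ATRX CT and 0.0358, 0, 0 and 3.38 FPKM for ATRX KD tumors. For the NSG host it was at 0.333, 0.148, 0.0172, 1.07 and 0.54 FPKM in the ATRX CT tumors and at 3.66, 1.79, 0.0188, 3.66 and 0 FPKM in the ATRX KD tumors. Krt6b was at 0, 0, 0 and 13.5 FPKM in the Balb/c ATRX CT tumors and at 0.0183, 0, 0 and 3.15 FPKM in the Balb/c ATRX KD tumors. Among NSG tumors the values were 0.0577, 0.22, 0, 0.598 and 0.429 FPKM for ATRX CT and 2.03, 0.461, 0, 1.99 and 0.0166 FPKM for ATRX KD. Outside the 7 tumors Krt6a did not pass 0.333 FPKM and Krt6b did not pass 0.220 FPKM. Their exons share sequence, since 38.6% of 75-nt windows of Krt6a and 39.6% of those of Krt6b also occur in another gene, mostly in each other, so the split between them is uncertain. Relative to Krt5, Krt6a was at 0.616 to 1.48 in the 7 tumors and Krt6b at 0.214 to 1.201, with tumor 27 lowest for Krt6b. Of Krt16 windows, 28.9% were shared, most of them with the gene model Gm11597.

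Krt17, a keratin of the outer root sheath of the hair follicle, was at 8.02 FPKM in tumor 45 and between 1.61 and 1.92 FPKM in tumors 60, 26, 27 and 29. It had no shared windows, and relative to Krt5 it was at 0.419 to 0.746 in the 7 tumors, with tumor 27 highest. NSG ATRX CT tumor 2 had Krt17 at 0.481 FPKM with Krt5 at 0.0476 FPKM. Krt79, found in the upper part of the hair follicle, was at 0.653 FPKM in tumor 45, 0.273 FPKM in tumor 27 and 0.168 FPKM in tumor 29. In tumors 4, 5 and 26 Krt79 rested on 1.93 to 2.95 estimated fragments, under the level of 3. The 2 tumors highest in Krt79 were also the 2 highest in Krt15, and both genes rested on 10.03 to 25.3 estimated fragments there.

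**Figure D3:**
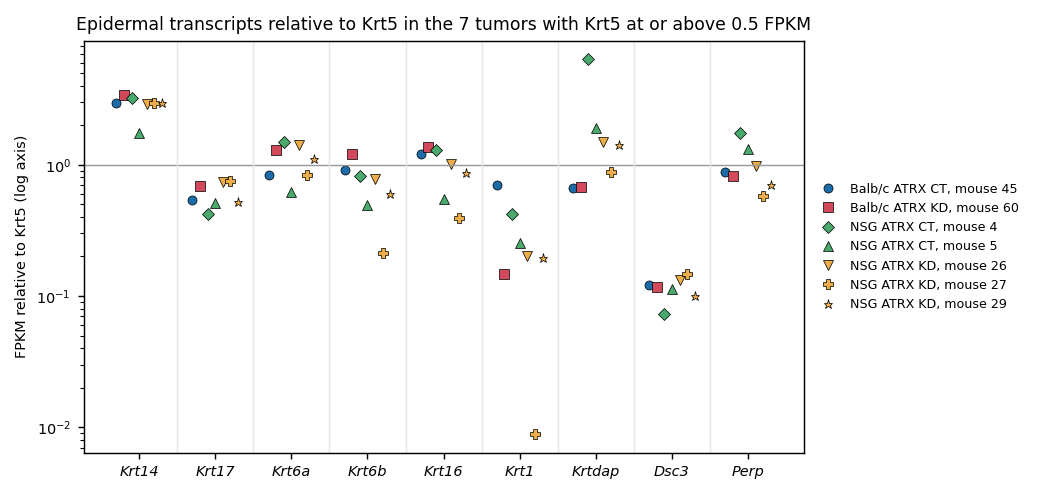
Level of 9 members relative to Krt5 in the same tumor (y axis, ratio of FPKM values, log axis) in the 7 tumors with Krt5 at or above 0.5 FPKM, with a symbol for each tumor. Krt14 and Krt17 vary little, Krt1 runs from 0.00889 in tumor 27 to 0.697 in tumor 45, and Krtdap is highest in NSG ATRX CT tumor 4 at 6.33.

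Among cell junction genes, the desmosomal genes Perp, Dsp, Pkp1 and Dsc3 had their highest levels in tumors with Krt5, while the desmosomal Jup and Pkp3 and the genes of other junctions were found in tumors with and without it. In Balb/c hosts, Perp was at 0.0709, 0.24, 0.17 and 13.1 FPKM in ATRX CT and at 0.27, 0.16, 0.421 and 2.13 FPKM in ATRX KD tumors. Its values in NSG were 0.0482, 0.306, 0.155, 1.27 and 1.15 FPKM for the ATRX CT tumors and 2.52, 1.25, 0.0327, 2.32 and 0 FPKM for the ATRX KD tumors. Perp, a membrane protein of desmosomes, was above 1 FPKM in the same 7 tumors as Krt5 and at 0.421 FPKM or less in the rest. Dsp, the desmoplakin that ties keratin filaments to desmosomes, was at 4.34 FPKM in tumor 45 and at 0.610 to 0.793 FPKM in tumors 60, 26, 27 and 29. Its level relative to Krt5 stayed between 0.208 and 0.302 in the 7 tumors, over 26.8 to 818 estimated fragments.

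The plakophilin Pkp1 and the desmosomal cadherin Dsc3 were also highest in tumor 45, with 2.9 and 1.78 FPKM in tumor 45. They were at 0.326 to 0.612 FPKM and 0.307 to 0.341 FPKM in tumors 60, 26, 27 and 29. Dsg1a and Dsc1, desmosomal cadherins of the upper layers, were at 0.979 and 1.06 FPKM in tumor 45. Dsg3, that of the lower layers, was at 0.921 FPKM there. The order of the other tumors differed between the layers, as Dsg3 was at 0.173 FPKM and Dsg1a at 0.0241 FPKM in tumor 27 and the values in tumor 60 were 0.0888 and 0.123 FPKM. These low values rest on 2.91 to 15.2 estimated fragments, and 29.2% of Dsg1a windows are shared, most of them with Dsg1b.

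Cldn1 stood at 71.8, 47.5, 43.5 and 74.8 FPKM in Balb/c ATRX CT and at 39.5, 54.7, 59.5 and 42.6 FPKM in Balb/c ATRX KD tumors. For the NSG host it was at 45.4, 46.7, 49.7, 42.4 and 54.9 FPKM in the ATRX CT tumors and at 55.5, 67.2, 52.2, 50.1 and 57.4 FPKM in the ATRX KD tumors. Cldn1, a tight junction claudin, was the most abundant member by its median over the 18 tumors, 51.2 FPKM, and its highest tumor was 1.04 times the next. The level of Jup in Balb/c was 2.81, 3.45, 1.32 and 5.06 FPKM for ATRX CT and 4.4, 2.68, 2.11 and 3.54 FPKM for ATRX KD tumors. The NSG tumors had it at 1.98, 1.65, 3.78, 1.5 and 1.78 FPKM with ATRX CT and at 2.76, 3.14, 1.72, 2.26 and 2.13 FPKM with ATRX KD. Plakoglobin, the product of Jup, serves desmosomes and adherens junctions alike, and its order of tumors was not that of Krt5. Pkp3, a plakophilin of wide epithelial expression, ranged from 0.513 to 4.10 FPKM, with tumors 45 and 60 highest.

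Cdh1 was at 1.61, 1.25, 1.29 and 2.61 FPKM in the Balb/c ATRX CT tumors and at 1.01, 1.04, 0.752 and 0.843 FPKM in the Balb/c ATRX KD tumors. Its values in NSG were 0.278, 0.406, 0.822, 0.737 and 0.453 FPKM for the ATRX CT tumors and 0.902, 1.02, 0.413, 0.573 and 0.326 FPKM for the ATRX KD tumors. Cdh1, E-cadherin, was highest in tumor 45 and next in Balb/c ATRX CT tumors 41, 44 and 43, which had Krt5 at 0.0560 FPKM or less. In Balb/c hosts, Cdh3 was at 0.411, 0.457, 0.506 and 0.599 FPKM in ATRX CT and at 0.174, 0.238, 0.151 and 0.12 FPKM in ATRX KD tumors. For the NSG host it was at 0.0803, 0.209, 0.244, 0.12 and 0.14 FPKM in the ATRX CT tumors and at 0.18, 0.138, 0.0842, 0.0897 and 0.21 FPKM in the ATRX KD tumors. Cdh3, the P-cadherin of basal and follicle keratinocytes, was higher in all 4 Balb/c ATRX CT tumors than in any of the other 14 tumors, including 60, 26 and 29 with their basal keratins.

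Epcam, which marks simple epithelia, and Cldn4, a tight junction claudin, were highest in Balb/c ATRX KD tumor 56, at 1.11 and 0.813 FPKM. Krt5 and Krt14 were at 0.154 and 0.235 FPKM in that tumor. In the same tumor the simple-epithelial keratins Krt19, Krt8 and Krt18, which are not members, were at 8.32, 5.81 and 4.87 FPKM. In the other 17 tumors they did not pass 1.10, 0.805 and 1.04 FPKM, all of these in Balb/c ATRX KD tumor 59. In tumor 45 the 3 keratins were at 0.0580, 0.0261 and 0.0666 FPKM. The tumor highest in simple-epithelial keratins was thus not one of the 7 with Krt5 at or above 0.5 FPKM. Cldn4 was next highest in tumor 45, at 0.395 FPKM.

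**Figure D4:**
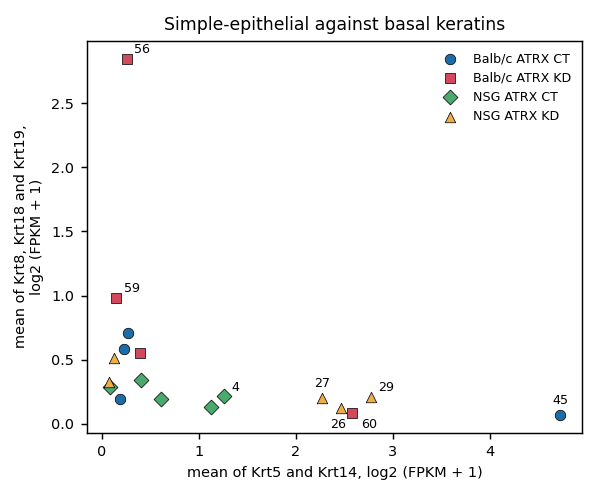
Mean of the simple-epithelial keratins Krt8, Krt18 and Krt19 (y axis) against the mean of the basal keratins Krt5 and Krt14 (x axis) in the 18 tumors, on the log2 (FPKM + 1) scale, with symbols for host and shRNA. Balb/c ATRX KD tumor 56 is at 2.85 on the y axis and 0.256 on the x axis, and Balb/c ATRX CT tumor 45 at 0.0705 and 4.72.

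Differentiation genes distinguished tumor 45 again. Lor encodes loricrin, the main protein of the cornified envelope, and was at 3.63 FPKM in tumor 45, from about 118 fragments. Tumors 29 and 60 had it at 0.311 and 0.279 FPKM, about 10.7 and 8.83 fragments. All other tumors, including 26 and 27, were at 0.0787 FPKM or less, under the level of 3 fragments at the median depth. The ratio of Lor to Krt5 was 0.246 in tumor 45 and 0.0932 and 0.106 in tumors 29 and 60.

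Krtdap stood at 0, 0.161, 0 and 9.8 FPKM in Balb/c ATRX CT and at 0, 0, 0 and 1.79 FPKM in Balb/c ATRX KD tumors. The NSG tumors had it at 0.803, 0.63, 0.345, 4.58 and 1.67 FPKM with ATRX CT and at 3.84, 1.88, 0.542, 4.7 and 0.16 FPKM with ATRX KD. Krtdap, which keratinocytes release as they begin to differentiate, was above 1 FPKM in the same 7 tumors as Krt5. In NSG tumor 4 it was 6.33 times Krt5, and in tumors 45 and 60 it was 0.663 and 0.681 times Krt5. The short transcript gives wide counting error, since these values rest on 8.43 to 58.2 fragments.

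The level of Sfn in Balb/c was 0.921, 0.945, 0.62 and 7.42 FPKM for ATRX CT and 1.26, 0.433, 0.299 and 1.93 FPKM for ATRX KD tumors. Among NSG tumors the values were 1.15, 0.591, 0.982, 0.90 and 1.28 FPKM for ATRX CT and 1.6, 1.56, 0.405, 2.69 and 0.585 FPKM for ATRX KD. Sfn, the 14-3-3 protein sigma of stratified epithelia, was present in all tumors, with tumors 45, 29 and 60 highest. Calml3, a calmodulin-like protein of differentiating keratinocytes, was at 0.466 FPKM in tumor 45 and 0.221 and 0.175 FPKM in tumors 26 and 27, and listed at 0 in 10 tumors.

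Sbsn was at 5.78, 5.08, 8.88 and 15.2 FPKM in the Balb/c ATRX CT tumors and at 8.18, 8.72, 8.44 and 8.3 FPKM in the Balb/c ATRX KD tumors. For the NSG host it was at 19.6, 21, 14.6, 26.1 and 15.6 FPKM in the ATRX CT tumors and at 12.7, 10.4, 26.6, 16.6 and 11.3 FPKM in the ATRX KD tumors. Sbsn, suprabasin, was named for the suprabasal epidermis, but here its highest tumors were NSG ATRX KD tumor 28 and NSG ATRX CT tumor 4, and tumor 28 had Krt5 at 0.0209 FPKM. In Balb/c hosts, Dmkn was at 1.31, 0.475, 0.873 and 5.3 FPKM in ATRX CT and at 0.33, 2.02, 0.778 and 0.988 FPKM in ATRX KD tumors. The NSG tumors had it at 1.1, 1.73, 0.628, 1.74 and 1.36 FPKM with ATRX CT and at 2.46, 2.0, 3.07, 3.33 and 2.0 FPKM with ATRX KD. Dmkn, dermokine, was highest in tumor 45 and was at 1.996 FPKM or more in all 5 NSG ATRX KD tumors. Sbsn, Dmkn and Krtdap are neighbours on chromosome 7 (mm10, 30751471 to 30756134, 30763756 to 30781066 and 30787905 to 30791083, all on the plus strand). Of the 3, only Krtdap was above 1 FPKM in just the 7 tumors with Krt5 at or above 0.5 FPKM, though not in the order of Krt5. Sbsn and Dmkn had high values in tumors with little Krt5.

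Promoter sequences from RefSeq (GRCm38.p6, 250 bases before to 50 bases after each start) were on hand for 17 of the 38 members, 20 promoters in all. The letters TATAAA lay 40 to 21 bases before the start on the gene's strand in 3 of the 20 (15%), against 1.87% of all 32851 promoters of that length. The 3 belong to Krt10, Krtdap and Lor, genes of the suprabasal and cornified layers. The promoters of Krt77, Sbsn, Dmkn and Sfn, members of the same roles, did not have these letters there. None was on hand for Krt1 and Calml3, also of these roles. Anywhere in the 300 bases and on either strand the share was 15% against 13.6%. The 100 bases before each start are shown 5′ to 3′ on the gene's strand, with TATAAA in capitals, and end at the base before the start.
Krt10 (chr11:99389365-99389464, minus strand): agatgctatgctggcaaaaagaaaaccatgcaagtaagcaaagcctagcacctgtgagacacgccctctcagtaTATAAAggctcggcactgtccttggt
Krtdap (chr7:30787805-30787904, plus strand): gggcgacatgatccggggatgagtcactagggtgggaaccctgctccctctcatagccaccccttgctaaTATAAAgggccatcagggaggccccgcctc
Lor (chr3:92083143-92083242, minus strand): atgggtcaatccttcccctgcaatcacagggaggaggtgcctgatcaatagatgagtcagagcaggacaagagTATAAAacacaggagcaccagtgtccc

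On either strand, the letters TGANTCA of the AP-1 motif were in 7 of the 20 promoters (35%), against 7.81% of all. These 7 belong to Cldn4, Dmkn with 3 promoters, Krtdap, Lor and Sbsn, so they are not 7 separate genes. The letters CCNCNCCC of a KLF motif were in 75% of the members' promoters and 49.5% of all, and GCCNNNGGC of a TFAP2 motif in 10% and 16.6%. AACCGGTT, a GRHL motif, was in 0 of the 20 and in 0.146% of all. A match is only these letters in this window.

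The epithelial regulators did not follow the keratins closely. Klf5 stood at 10.1, 12.4, 9.43 and 16.9 FPKM in Balb/c ATRX CT and at 11.7, 8.24, 8.41 and 11 FPKM in Balb/c ATRX KD tumors. Among NSG tumors the values were 6.92, 6.65, 8.98, 6.87 and 10.6 FPKM for ATRX CT and 8.02, 10.5, 12.6, 10.4 and 14 FPKM for ATRX KD. Klf5, a zinc finger factor of epithelia and of other tissues, was at 6.65 FPKM or more in every tumor. The level of Grhl1 in Balb/c was 0.51, 0.808, 0.721 and 1.1 FPKM for ATRX CT and 0.777, 0.475, 0.378 and 0.626 FPKM for ATRX KD tumors. Its values in NSG were 0.189, 0.392, 0.529, 0.514 and 0.468 FPKM for the ATRX CT tumors and 0.382, 0.279, 0.191, 0.296 and 0.18 FPKM for the ATRX KD tumors. Grhl1, a factor that acts on desmosomal cadherin genes, was highest in tumor 45 and next in Balb/c ATRX CT tumor 43, which had Krt5 at 0.0560 FPKM. Esrp1 was at 0.0143, 0.012, 0 and 0.393 FPKM in the Balb/c ATRX CT tumors and at 0.201, 0, 0.0467 and 0.0599 FPKM in the Balb/c ATRX KD tumors. The NSG tumors had it at 0.0196, 0, 0, 0.0495 and 0.0345 FPKM with ATRX CT and at 0.0427, 0.0806, 0, 0.0414 and 0 FPKM with ATRX KD. Esrp1, an epithelial splicing factor, was highest in tumor 45 and next in tumor 56, the tumor with simple-epithelial keratins. Grhl3 and Ovol1, factors of late epidermal differentiation, did not pass 0.175 and 0.188 FPKM, and both were highest in tumor 45.

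Genes outside the members placed the layers further. Of 24 genes of the granular and cornified layer found in the matrix, 18 were highest in tumor 45, and 14 of them were more than 2 times the next tumor there. Sprr1b, a small proline-rich envelope precursor, was at 5.16 FPKM in tumor 45, 2.55 FPKM in tumor 60, and 1.95, 0.59 and 1.55 FPKM in NSG tumors 26, 27 and 29. It was at 0.564 FPKM or less elsewhere. The late envelope genes Lce1b, Lce1a1, Rptn and Ivl, named after their values were seen, were at 1.45, 1.41, 0.834 and 0.354 FPKM in tumor 45 and at 0.237, 0.196, 0.0864 and 0.0859 FPKM or less in every other tumor. Cnfn and Asprv1, the other two genes of this list with the highest levels, were found in all 18 tumors at 2.42 to 52.9 FPKM and 0.560 to 5.82 FPKM. Cnfn was highest in tumor 56. Other genes of this list were not highest in tumor 45. Flg2 was highest in Balb/c ATRX CT tumor 43, at 1.21 FPKM against 0.265 FPKM in tumor 45. Cdsn was highest in tumor 56, at 3.65 FPKM against 2.16 FPKM in tumor 45. Tgm1 was highest in NSG ATRX CT tumor 3, at 3.42 FPKM against 2.46 FPKM in tumor 45. Krt2 did not pass 0.0190 FPKM in any tumor.

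Of the hair follicle list, Hoxc13 was at 5.84 to 12.4 FPKM in every tumor and Padi3 at 0.224 to 1.24 FPKM, neither in the order of Krt5. Krt25, a keratin of the inner root sheath, was at 0.543 FPKM in tumor 45, 0.325 in tumor 5, 0.102 in tumor 4 and 0.0861 in tumor 29, and listed at 0 in the other 14 tumors. The melanocyte enzyme Dct was highest in tumor 27 at 0.404 FPKM and tumor 4 at 0.314 FPKM, and Tyrp1 had the same highest 2 tumors at 0.331 and 0.179 FPKM, while Mlana was highest in tumor 60 at 0.336 FPKM. Cd207, the Langerhans cell lectin, was highest in Balb/c ATRX CT tumor 41 at 1.09 FPKM and not in tumor 45, where it was at 0.826 FPKM. Sebaceous genes were low, with Awat2, Elovl3 and Scd3 at no more than 1.14, 1.08 and 0.213 FPKM. Oral and esophageal keratins were lower still, with Krt4, Krt84 and Krt13 at no more than 0.473, 0.0541 and 0.0443 FPKM. Of mammary genes Ltf, Csn3 and Lalba did not pass 0.940, 0.829 and 0.626 FPKM.

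Tissues next to a tumor under the skin were read from their own genes. The summed level of 8 skeletal muscle genes was 434 FPKM in NSG ATRX KD tumor 30, 327 FPKM in NSG ATRX CT tumor 3 and 14.7 FPKM in tumor 45. That of 6 adipocyte genes was highest in NSG ATRX KD tumor 28 at 334 FPKM and was 80.0 FPKM in tumor 45. The leading muscle genes Acta1, Mylpf and Ckm were at 170.3, 92.7 and 71.6 FPKM in tumor 30, and the leading adipocyte genes Fabp4, Cfd and Adipoq at 197, 101 and 18.7 FPKM in tumor 28. Neither tumor had Krt5 above 0.0209 FPKM. NSG ATRX KD tumor 29, second highest in Krt5 and Krt14, was behind only tumors 30 and 3 in muscle genes at 141.5 FPKM and had adipocyte genes at 155.6 FPKM, so muscle and fat genes were found in tumors with and without keratins. Whether skin was taken with a tumor was not tested, and in these whole-tumor RNA samples fewer cells of a type and less RNA per cell cannot be told apart.

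By the rule used for likeness, the genes most like the members were at 1 FPKM or more in tumor 45, had tumors 45 and 29 as their highest 2, which are the 2 highest in the mean of the members, and had the widest log2 gap to the third tumor. Of 21 such genes outside all lists, the first was Stfa3, a cysteine protease inhibitor, at 31.4 FPKM in tumor 45, 8.46 FPKM in tumor 29 and 4.65 FPKM in the third. Lgals7, a galectin of stratified epithelia, had 14.5, 5.78 and 4.31 FPKM. Cpa4, Gjb2, 2610528A11Rik, Serpinb5, Ckmt1, Aqp3, 2310068J16Rik and March9 followed, with gaps of 0.349 down to 0.0808 on the log2 (FPKM + 1) scale.

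In Balb/c, no member was called between ATRX KD and ATRX CT tumors. The call needed a Benjamini-Hochberg adjusted p under 0.05 over all genes fitted by limma on log2 (FPKM + 1) and a 2-fold difference. Of 14701 genes tested 0.00680% were called, and 33 members were tested. At an unadjusted p under 0.05 0 members were higher and 2 lower, against 1.72% and 2.42% of all genes. Cdh3 and Cdh1 were the pair. Cdh3 was at 0.493 ± 0.0805 FPKM (SD, n = 4) in ATRX CT and 0.171 ± 0.0498 FPKM (SD, n = 4) in ATRX KD tumors, a log2 difference of −0.35 (SE 0.0773, limma adjusted p = 0.432). Cdh1 was at 1.69 ± 0.633 and 0.909 ± 0.135 FPKM, a log2 difference of −0.47 (SE 0.159, limma adjusted p = 0.958). The groups did not overlap for either gene (exact permutation p = 0.0286 each, two-sided, the smallest that 4 against 4 tumors allow), as for 1.93% of all genes in that direction. Neither holds after adjustment over all genes.

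Of the 33 members tested 28 had a difference below 0 in Balb/c, with a median of −0.32 against −0.0032 over all genes tested. Genes were tested if they averaged at least 0.1 FPKM over the compared tumors. Dsg1a, Dsg3, Krt77 and Krt79 passed this filter only through tumor 45, at 0.979, 0.921, 0.754 and 0.653 FPKM. The same held for Krt1, Lor, Pkp1, Dsc3 and Dsc1, at 10.3, 3.63, 2.9, 1.78 and 1.06 FPKM there. Each of these members had a difference below 0. The filter thus let in members that were higher in ATRX CT, and the count and the median are partly set by it. Each group held a tumor with keratins, and tumor 45 had more than tumor 60. For Krt5 the difference was −0.47 (SE 0.870, limma adjusted p = 0.999) and for Krt14 −0.54 (SE 1.18, adjusted p = 0.999). The spread between tumors of 1 group was thus larger than the difference between groups. With tumors 45 and 60 left out, the count of calls stayed at 0.

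In NSG, no member was called between ATRX KD and ATRX CT tumors, against 0.464% of 14654 genes tested, and 26 members were tested. An unadjusted p under 0.05 was reached by 4 members that were higher and 0 that were lower, against 13.8% and 12.5% of all genes. Dmkn came closest, at 1.31 ± 0.466 FPKM (SD, n = 5) in ATRX CT and 2.57 ± 0.613 FPKM (SD, n = 5) in ATRX KD tumors. Its log2 difference was 0.64 (SE 0.163, limma adjusted p = 0.0422), short of 2-fold, and without the fold threshold 6.78% of all genes would be called. The groups did not overlap (exact permutation p = 0.00794, two-sided), as for 4.36% of all genes in that direction. Dmkn was at 3.07 FPKM in tumor 28 and 2.0 FPKM in tumor 30, both with Krt5 at 0.0209 FPKM or less, and at 1.1, 1.73 and 1.74 FPKM in tumors 1, 2 and 4.

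The other 3 members were Itgb4 (log2 difference 0.59, SE 0.164, limma adjusted p = 0.0532), Klf5 (0.42, SE 0.161, adjusted p = 0.123) and Cldn1 (0.23, SE 0.0999, adjusted p = 0.163), all genes that every tumor expressed. Krt5 was at 0.386 ± 0.397 FPKM (SD, n = 5) in ATRX CT and 1.62 ± 1.52 FPKM (SD, n = 5) in ATRX KD tumors. Its log2 difference of 0.71 (SE 0.416, limma adjusted p = 0.302) did not pass the test, nor did that of Krt14 at 0.98 (SE 0.655, adjusted p = 0.363). For Krt5, ATRX KD tumors 26, 27 and 29 were above all 5 ATRX CT tumors, and tumors 28 and 30 were below 4 of them. The median difference of the members tested was 0.24, against −0.0014 over all genes. Dsc3, Pkp1 and Epcam passed the filter through the ATRX KD group. Their means were 0.0441, 0.0640 and 0.0884 FPKM in ATRX CT and 0.199, 0.250 and 0.145 FPKM in ATRX KD tumors. The median is thus partly set by the filter.

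Between hosts, the ATRX CT tumors gave no called member either, against 1.43% of 14828 genes tested, and 31 members were tested. Of the members, 6 were higher in Balb/c and 1 lower at an unadjusted p under 0.05, against 11.5% and 7.87% of all genes. Cdh1 and Cdh3 passed an adjusted p of 0.05 without reaching 2-fold on the log2 (FPKM + 1) scale, which understates differences at such levels, and 3.18% of all genes passed with or without that fold. Cdh1 was at 1.69 ± 0.633 FPKM (SD, n = 4) in Balb/c and 0.539 ± 0.230 FPKM (SD, n = 5) in NSG, a log2 difference of 0.79 (SE 0.161, limma adjusted p = 0.0245). Cdh3 was at 0.493 and 0.158 FPKM, a log2 difference of 0.37 (SE 0.0755, limma adjusted p = 0.0260). With a pseudocount of 0.1 in place of 1 the log2 differences were 1.502 and 1.227 (limma adjusted p = 0.0261 and 0.0303) and both genes were called. The share of all genes called with that pseudocount is not given here. In both genes every Balb/c tumor was above every NSG tumor (exact permutation p = 0.00794, two-sided), as for 4.72% of all genes in that direction. Both cadherins were high in Balb/c tumors 41, 43 and 44, which had Krt5 at 0.0560 FPKM or less. Balb/c and NSG hosts differ in strain, in immune cells and in T cell RNA, and these cannot be told apart here.

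Sbsn was lower in the Balb/c ATRX CT tumors, at 8.74 ± 4.63 FPKM (SD, n = 4) against 19.4 ± 4.62 FPKM (SD, n = 5). The log2 difference was −1.15 (SE 0.279, limma adjusted p = 0.0548), which just missed the call, and only tumor 45 overlapped the NSG range. Without tumor 45 the difference was −1.43 (limma adjusted p = 0.0071) and Sbsn was called, with the share of all genes called in that fit not given here. Itgb4, Epcam, Klf5 and Grhl1 were the other 4 members higher in Balb/c, at adjusted p of 0.111, 0.118, 0.168 and 0.166. The median difference of the members tested was 0.43, against 0.0084 over all genes, and tumor 45 is among the Balb/c tumors. Here Krt1, Dsp, Dsc1, Dsc3, Pkp1, Lor, Dsg1a, Dsg3 and Krt79 passed the filter only through tumor 45, and each was higher in Balb/c. The median is thus partly set by the filter.

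The ATRX KD tumors gave no called member between hosts, against 1.39% of 14669 genes tested, and 27 members were tested. At an unadjusted p under 0.05, 2 members were higher in Balb/c and 2 lower, against 9.93% and 6.50% of all genes. Dmkn was at 1.03 ± 0.717 FPKM (SD, n = 4) in Balb/c and 2.57 ± 0.613 FPKM (SD, n = 5) in NSG, a log2 difference of −0.86 (SE 0.220, limma adjusted p = 0.0644). Without Balb/c tumor 58, whose Dmkn of 2.02 FPKM overlapped the NSG range, the difference was −1.08 (limma adjusted p = 0.0114) and Dmkn was called. The share of all genes called without that tumor is not given here. Sbsn was at 8.41 ± 0.231 and 15.5 ± 6.61 FPKM, a log2 difference of −0.73 (SE 0.231, limma adjusted p = 0.134). Every Balb/c tumor was below every NSG tumor for Sbsn (exact permutation p = 0.0238, two-sided), as for 3.05% of all genes in that direction. Grhl1 and Epcam were the 2 higher in Balb/c, at log2 differences of 0.30 (SE 0.0917, adjusted p = 0.120) and 0.50 (SE 0.175, adjusted p = 0.174). The median of the members tested was −0.15, against −0.0163 over all genes. Dsc3 and Krt1, with means of 0.0767 and 0.0970 FPKM in Balb/c and 0.199 and 0.238 FPKM in NSG, passed the filter through the NSG group. The median is thus partly set by the filter.

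**Figure D5:**
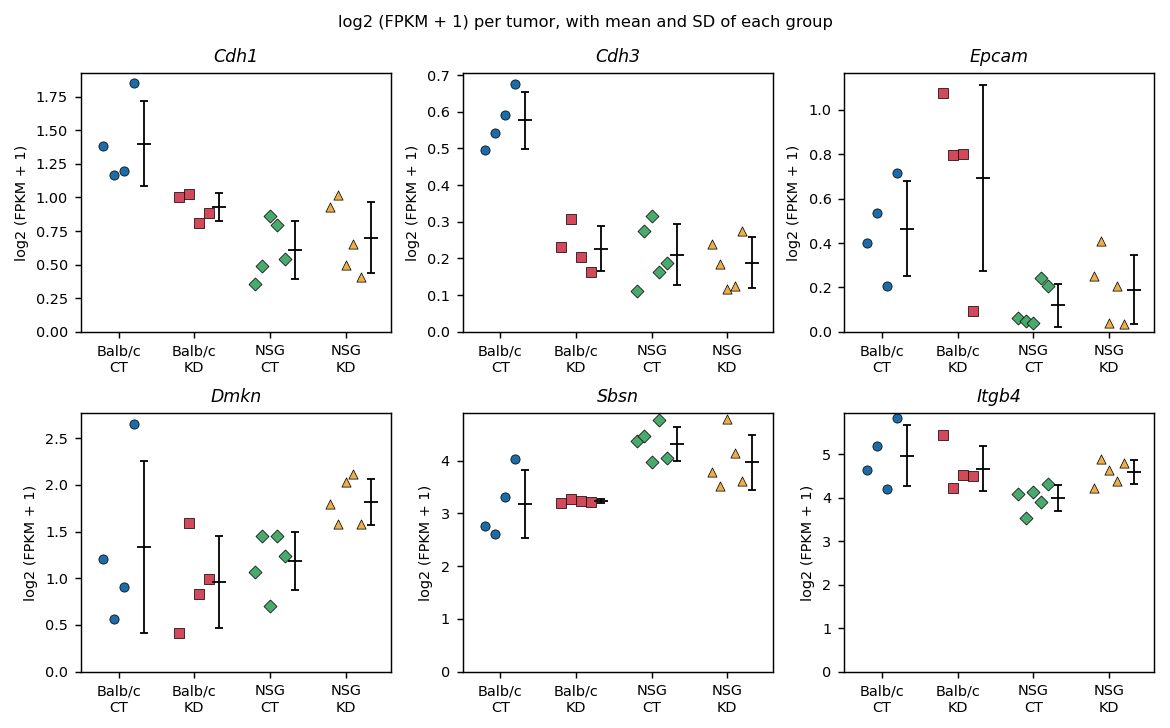
Level of Cdh1, Cdh3, Epcam, Dmkn, Sbsn and Itgb4 (y axes, log2 (FPKM + 1)) in each tumor of the 4 groups (x axes), with the mean as a dash and the SD as bars beside the points. The 4 Balb/c ATRX CT tumors lie above all other groups for Cdh3, and the 5 NSG ATRX KD tumors lie above the 5 NSG ATRX CT tumors for Dmkn.

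The knock-down difference in Balb/c minus that in NSG, tested as an interaction over all 18 tumors, gave no called member, and 0% of 14803 genes tested were called. Of the 29 members tested, 0 were above 0 and 6 below at an unadjusted p under 0.05, against 4.45% and 5.86% of all genes. Cdh3 came closest at −0.33 (SE 0.0894, limma adjusted p = 0.228), and Cdh1 was at −0.56 (SE 0.217, adjusted p = 0.403). The other 4 were Klf5, Itgb4, Dmkn and Cldn1, at adjusted p between 0.391 and 0.481. With library weights and a robust prior, Klf5, Cdh3 and Itgb4 had interaction adjusted p of 0.0300, 0.0356 and 0.0378 (limma), at log2 differences of −0.82, −0.28 and −0.94, all short of 2-fold. Under every other alternative their adjusted p was 0.138 or more. The fit with library weights also called genes over the whole matrix by the 2-fold rule, where the main fit called 0%. Its share of all genes without the fold threshold is not given here, so these adjusted p are not read as a result about the members.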

How the data were processed

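Whole-tumor RNA from 18 K7M2 tumors was sequenced as stranded, ribosomal-RNA-depleted paired-end reads of 75 bp. Per the study's methods, the authors used STAR 2.6.0c for alignment to mm10, dropped pairs of quality under 20 as well as duplicates, and ran Cufflinks 2.2.1 on RefSeq genes. The deposited values are log2 (FPKM + 1), with base 2 settled from the total they sum to, and the deposited gene annotation gave transcript lengths. The study compared counts with DESeq, and counts were not used here. FPKM steps gave whole reads for only 34.9 to 38.7% of low values (within 0.1 of a whole number, 20% by chance), so depths are approximate and no count test was run.

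Values were turned back into FPKM for the text. limma 3.58.1 (R 4.3.3, trended prior) was fitted to log2 (FPKM + 1) over every gene that averaged 0.1 FPKM or more across the compared tumors, with Benjamini-Hochberg adjustment over all of them. A call needed an adjusted p under 0.05 and 2-fold. Fold differences on this scale understate those of low genes. Two-sided exact permutation tests of the difference of group means (R 4.3.3) served single members. Each host or shRNA comparison used its 2 groups, and the interaction used all 4. Alternatives were a pseudocount of 0.1, median-ratio scaling, other filters, no fold threshold, library weights, all groups in 1 fit, leaving out tumors, and a set of 7 tumors added after seeing the data. The fits were tested on simulated data before use. Shared sequence was counted as 75-nt windows of GENCODE M21 transcripts of each gene that occur in another gene.

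The 38 members and the marker lists were chosen with earlier results of these data known. Named genes were all members, with values for the 3 highest of each role, those closest to a call, Atrx, the 3 highest genes of each marker list, and the 10 most like the members. Genes named beside these, such as Lce1b, were chosen after their values were seen. Flg, Sprr2a1, Krt85 and Wap were not analysed here. Replicates are separate mice.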

Additional observations from a re-analysis of the deposited data

Results flagged for a closer look

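Balb/c ATRX CT tumor 45 lay far from the other 3 tumors of its group, by the gap to its nearest neighbour against the range of the group (Dixon's criterion). It did so in the mean log2 (FPKM + 1) of all 38 members, at 2.37 against 0.684 to 0.736. The role lists behaved alike. The basal layer genes were at 2.93 there, the suprabasal keratins at 2.55, the stress, wound and appendage keratins at 3.15, the cell junction genes at 2.07 and the differentiation and cornified envelope genes at 2.66. The granular and cornified layer genes outside the members were at 1.13, against 0.398 to 0.428. Of single members, 23 had tumor 45 as a distant highest tumor.

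Balb/c ATRX KD tumor 60 was set apart in the same way, with a mean over all members of 1.25 against 0.702 to 0.787 and a mean over the stress, wound and appendage keratins of 1.60 against 0.0378 to 0.0716. It was the distant highest tumor for 11 members. In NSG, where several tumors of a group carried keratins, ATRX KD tumor 29 was the distant highest for 3 members and ATRX KD tumor 26 for 2. Chance alone flags about 1 in 20 groups. Here 9 of 72 groups of a list mean were flagged, with 3.6 awaited by chance, and 42 of 152 groups of a single member, with 7.6 awaited. Members and lists share tumors and are not independent. They were also chosen with earlier results of these data known, so more flags than chance would give is not a test of them. The rate of 1 in 20 holds for normally distributed values. Krt77 and Calml3 were listed at 0 in 10 tumors, and in such a group a single value above 0 is flagged.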

How the results depend on the processing

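The count of 0 called members was unchanged for the knock-down in Balb/c and for the interaction under every alternative run. In NSG it became 1 without a fold threshold (Dmkn). Between hosts in ATRX CT tumors it became 3 with a pseudocount of 0.1 (Cdh1, Cdh3, Sbsn), 2 without a fold threshold (Cdh1, Cdh3), and 1 (Sbsn) with library weights, with all 4 groups in 1 fit and without the 7 tumors with Krt5 at or above 0.5 FPKM. Leaving out 1 tumor at a time gave 0 to 1 called members there, with Sbsn called without Balb/c tumor 45 or NSG tumor 3 and Itgb4 (log2 difference 1.22, limma adjusted p = 0.0253) without Balb/c tumor 44. It gave 0 to 1 between hosts in ATRX KD tumors, with Dmkn called without Balb/c tumor 58, and 0 in the other 3 comparisons. Without a fold threshold 6.78% of all genes were called in NSG and 3.18% between hosts in ATRX CT tumors. The shares of all genes behind the other counts above are not given here, so those counts are not read as a result about the members. No direction of a member followed was reversed. With all 4 groups in 1 fit the adjusted p of Cdh3 between ATRX KD and ATRX CT in Balb/c was 0.0375. With library weights and a robust prior the interaction adjusted p of Klf5, Cdh3 and Itgb4 (limma) fell to 0.0300, 0.0356 and 0.0378. In that fit 195 of all 14803 genes were called against 0, by the rule with a 2-fold difference that these 3 members did not reach. Without the 7 tumors the adjusted p of Dmkn in NSG was 0.207. The causes were not tested. FPKM values carry no exact depth, so members near 3 fragments cannot be told from absent ones. No paired analysis was possible because the replicate numbers are mouse numbers that the groups do not share.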
